A study of Homo sapiens with 54 samples.

Results

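The genes described here were 10 members of the amino acid stress response around the transcription factor ATF4, taken by symbol from the 60642 gene symbols measured in LNCaP xenograft tumours. They were ATF4 itself, the regulators ATF3, DDIT3 and TRIB3, and CHAC1, an enzyme that breaks down glutathione. The others were the asparagine synthetase ASNS, the serine synthesis enzymes PHGDH, PSAT1 and PSPH, and the cystine transporter SLC7A11. They were chosen by gene name, with earlier results of these data known. All 10 passed the expression filter, at least 1 TPM (transcripts per 1000000, a read share corrected for transcript length) in at least 8 tumours, which left 17131 genes to test.

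When amino acids run short, when unfolded proteins build up in the endoplasmic reticulum or when other stress kinases are active, the translation factor eIF2 is phosphorylated. Most protein synthesis then slows, while the messenger RNA of ATF4 is translated more, because short upstream reading frames hold its translation back in unstressed cells. ATF4 protein turns on genes for making and importing amino acids and for charging transfer RNAs, together with DDIT3 (CHOP), ATF3 and TRIB3. The amount of ATF4 messenger RNA therefore need not follow the amount of ATF4 protein, and protein was not measured here.

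LNCaP is a human prostate cancer cell line that depends on androgen. Each of the 54 tumours grew from 1000000 LNCaP clone FGC cells placed under the flank skin of its own male NOD-SCID mouse, an immunodeficient strain aged 5 to 6 weeks on arrival, and every group therefore shared the line, the host and the site. The PRE-CX group (9 tumours) received mock surgery at about 200 mm3 and was collected at 1000 mm3, and the other groups were castrated by surgery at about 200 mm3. POST-CX tumours (8) were taken 1 week after castration, at the lowest serum level of prostate-specific antigen (PSA). CRPC tumours (10) were taken once PSA had regained its level before castration or at 1000 mm3. The remaining mice were given enzalutamide, an androgen receptor antagonist, by mouth at 10 mg/kg on 5 days per week from the time PSA started to climb. ENZS tumours (12) were taken at the second PSA minimum on the drug, and ENZR tumours (15) once PSA had regained its level before the drug or at 1000 mm3. Tumour size and time since injection thus differed between the groups along with treatment, and their parts in a difference cannot be told apart.

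The TPM of the human symbols summed to 12.1 to 97.5% of 1000000 (median 89.9%), and the rest was not in the table used here. Reads had been aligned to the human and mouse genomes together, and the rest is taken to be mouse and other entries, which the table does not state. The human sum was lowest in ENZR mouse 87 (12.1%), POST-CX mouse 91 (27.9%), POST-CX mouse 48 (59.7%) and ENZR mouse 103 (66.7%). Every deposited TPM of a human gene is lowered in such a tumour. Values after rescaling the human symbols of each tumour to 1000000 (rescaled TPM) are therefore also given. They are given where they alter a call or direction of a member or a count of genes in the related lists. Counts of tumours above or below a PRE-CX range or median are on deposited TPM unless stated, and some of them change on rescaling. Prostate luminal markers were present in every group, with a median summed level of 6660 TPM in PRE-CX, 3527 TPM in POST-CX, 7346 TPM in CRPC, 5292 TPM in ENZS and 4253 TPM in ENZR. In bulk tumours a smaller number of cells expressing a gene and less RNA per cell cannot be told apart.

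TPM can be set side by side between genes, and the members spread over a wide range. ATF4 was the most abundant with a median of 209.6 TPM over the 54 tumours, above 97.1% of the tested genes. PHGDH (median 129 TPM), PSAT1 (107 TPM), DDIT3 (62.7 TPM), ASNS (50.3 TPM) and ATF3 (41.6 TPM) followed. TRIB3 (28.9 TPM), PSPH (21.6 TPM) and SLC7A11 (9.07 TPM) were lower, and CHAC1, with 2.335 TPM, exceeded only 24.3% of the tested genes. CHAC1 reached 1 TPM in 46 tumours and the other 9 members in all 54. The members also differed in how far single tumours lay apart. On rescaled TPM the highest tumour exceeded the lowest 25.2-fold for CHAC1, 22.1-fold for DDIT3 and 16.6-fold for ATF3, but only 2.85-fold for ATF4, 2.91-fold for PSPH and 3.62-fold for ASNS. Of 13 pseudogenes of the members listed in the table, the highest was ASNSP1 with a median of 1.04 TPM, and how reads were split between such copies and their genes is uncertain.

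The core of the element that ATF4 binds together with C/EBP proteins, TGATGNAA (reverse complement TTNCATCA), was searched on both strands from 250 bases before to 50 bases after RefSeq gene starts on GRCh38.p14, because the members below moved together. It was found in 3.62% of 35116 such windows and in 2.59% of the 10831 tested genes that had a window. Of the 8 members with a window (none was given for PSPH and SLC7A11), 3 held it, namely ATF3, ASNS and CHAC1. ATF3 and ASNS each held it in 1 of 2 windows, and CHAC1 had 1 window. A letter match describes the sequence and is not evidence of binding, and no match in the other 5 says only that these letters are not in those windows. The stretches around the 3 matches are shown 5′ to 3′ on the strand of the gene, with the matched letters in capitals, at chr1:212565176-212565263 (plus strand) for ATF3, chr7:97872429-97872516 (minus strand) for ASNS and chr15:40953222-40953309 (plus strand) for CHAC1. In CHAC1 the match reads on the opposite strand.
ATF3: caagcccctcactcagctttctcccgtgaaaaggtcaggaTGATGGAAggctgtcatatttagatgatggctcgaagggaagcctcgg
ASNS: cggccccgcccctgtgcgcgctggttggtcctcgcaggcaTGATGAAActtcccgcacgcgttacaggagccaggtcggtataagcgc
CHAC1: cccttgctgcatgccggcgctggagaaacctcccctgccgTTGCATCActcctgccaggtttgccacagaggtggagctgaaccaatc

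Across the groups, the clearest pattern was in tumours at the PSA minimum on enzalutamide. Against PRE-CX, 5 of the 10 members rose in ENZS, namely PSAT1, CHAC1, DDIT3, SLC7A11 and TRIB3, and none fell. Over all tested genes 30.3% were higher and 8.18% lower in that comparison. The median log2 difference was 0.64 over the members and 0.26 over all tested genes, and all 10 members had a positive difference. In ENZR 2 members rose against PRE-CX, PSAT1 and CHAC1, where 17.6% of all tested genes were higher and 11.5% lower, so that 2 of 10 lay close to the share of all genes. The median was 0.30 over the members and 0.07 over all tested genes. On rescaled TPM 7 members rose in ENZS and the same 7 in ENZR, with ASNS and PSPH added to the 5 named for ENZS, while 47.8% and 44.8% of all tested genes were then higher. With values centred on the median 3 members rose in each, near the 26% and 25.3% of all tested genes that were then higher. The member medians were then 0.39 in ENZS and 0.24 in ENZR, against 0.01 and 0.02 over all tested genes. These comparisons, like those of POST-CX and CRPC with PRE-CX, share the PRE-CX tumours.

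**Figure D1:**
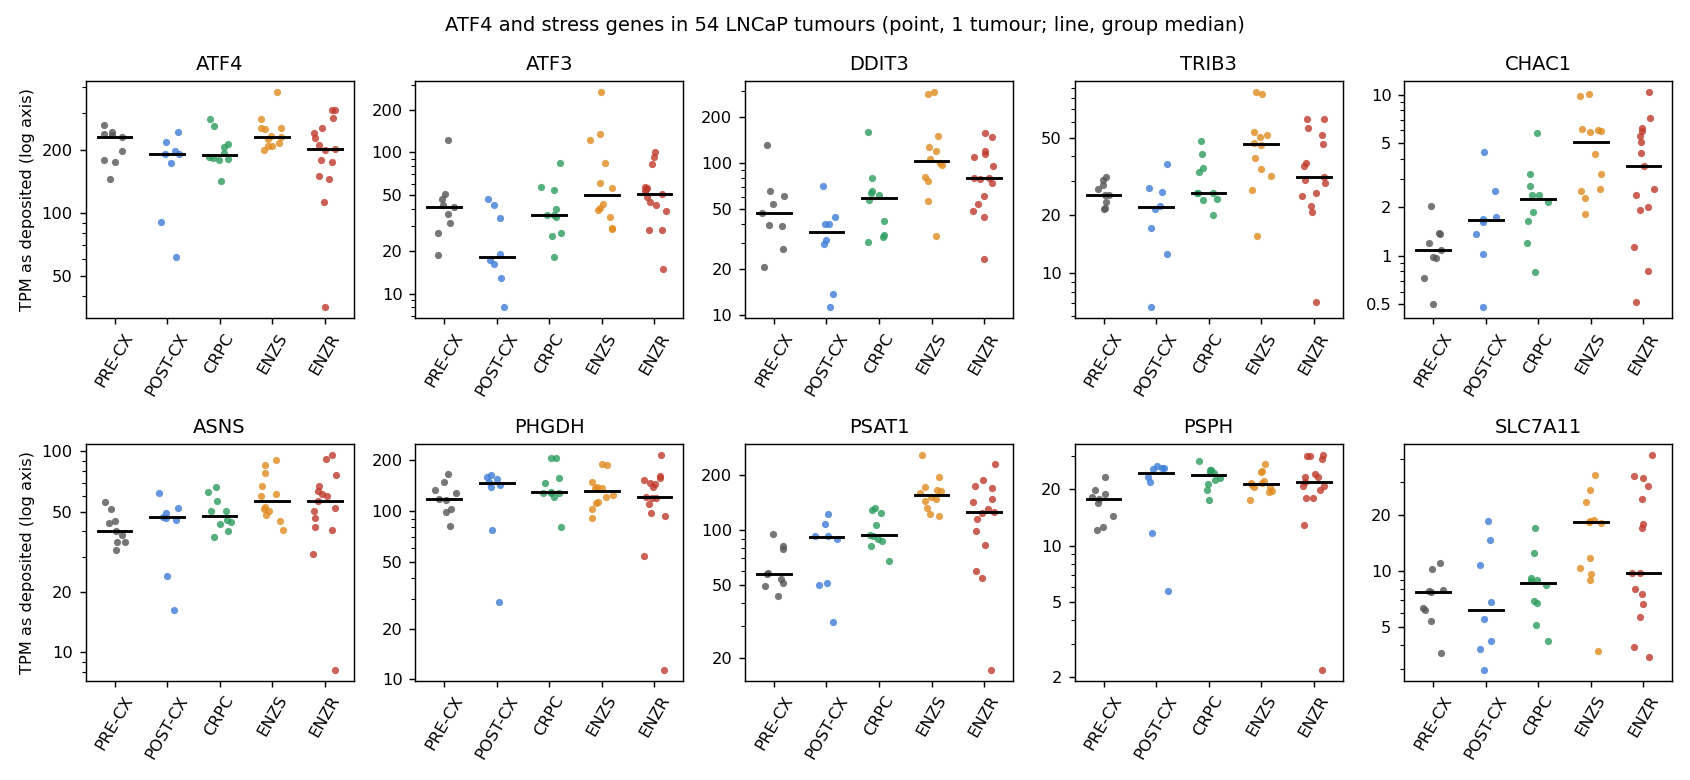
TPM of each of the 10 genes in every tumour, on a log axis, with 1 panel per gene, 1 point per tumour and a bar at the median of each group (PRE-CX 9, POST-CX 8, CRPC 10, ENZS 12 and ENZR 15 tumours). All 12 ENZS tumours lay above the PRE-CX range for PSAT1 and 11 of 12 for CHAC1, whereas the groups overlapped widely for ATF4 and PHGDH.

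ATF4, the transcription factor that heads the response (chromosome 22, 39520559 to 39522686 on GRCh38.p14), passed in no comparison on deposited TPM. Its lowest, median and highest levels were 145, 230.5 and 265 TPM in PRE-CX, 61.6, 192 and 243 TPM in POST-CX, and 142, 189 and 282 TPM in CRPC. They were 199.9, 232 and 381 TPM in ENZS and 35.4, 203 and 313 TPM in ENZR. The group ranges overlapped throughout, and the lowest value was that of ENZR mouse 87, whose human sum was 12.1%. The log2 difference from PRE-CX was -0.41 (SE 0.26, adjusted p = 0.417) in POST-CX and 0.21 (SE 0.23, adjusted p = 0.505) in ENZS. In ENZR it was -0.18 (SE 0.22, adjusted p = 0.583), which turned to 0.06 on rescaled TPM (adjusted p = 0.705). On rescaled TPM ATF4 was higher in ENZS than in CRPC by 0.35 (adjusted p = 0.0425), a difference of 0.28 on deposited TPM that did not pass.

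DDIT3 (CHOP), a C/EBP family factor linked to cell death under lasting stress (chromosome 12, 57516588 to 57520517), rose in ENZS. Its lowest, median and highest levels were 20.8, 46.7 and 132 TPM in PRE-CX, 11.3, 35.4 and 71.0 TPM in POST-CX, and 30.2, 59.4 and 160.4 TPM in CRPC. They were 33.0, 103 and 295 TPM in ENZS and 23.4, 79.3 and 157 TPM in ENZR. ENZS overlapped PRE-CX, but 11 of 12 ENZS tumours and 13 of 15 ENZR tumours lay above the PRE-CX median. The mean was 53.8 ± 32.8 TPM (SD, n = 9) in PRE-CX and 128 ± 82.3 TPM (SD, n = 12) in ENZS, and the log2 difference was 1.17 (SE 0.33, adjusted p = 0.00336), 2.26-fold on TPM + 1. DDIT3 was also the only member to pass between ENZS and CRPC on deposited TPM, with a log2 difference of 0.95 (SE 0.32, adjusted p = 0.0486), and that call was lost without any 1 of 34 of the 54 tumours. In ENZR the difference from PRE-CX was 0.70 (SE 0.31, adjusted p = 0.084), and it passed on rescaled TPM with 0.95 (adjusted p = 0.00709).

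ATF3, a stress-induced factor that forms dimers with other bZIP proteins (chromosome 1, 212565407 to 212620777), varied widely within groups and passed in no comparison on deposited or rescaled TPM. Its lowest, median and highest levels were 18.8, 41.1 and 122 TPM in PRE-CX, 8.02, 18.2 and 46.6 TPM in POST-CX, and 18.0, 36.1 and 84.0 TPM in CRPC. They were 28.7, 49.5 and 268 TPM in ENZS and 15.0, 51.0 and 100.2 TPM in ENZR. ENZS mouse 45 had the highest value and PRE-CX mouse 62 was the only PRE-CX tumour above 50.6 TPM, so the ranges overlapped. The difference from PRE-CX was -0.91 in POST-CX (SE 0.36, adjusted p = 0.159) and 0.57 in ENZS (SE 0.33, adjusted p = 0.165). In POST-CX 4 of 8 tumours fell short of the lowest PRE-CX value, and 2 of 8 did on rescaled TPM.

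TRIB3, a pseudokinase that restrains ATF4 and DDIT3 activity (chromosome 20, 380760 to 397559), had a narrow range before castration and a wide one on the drug. Its levels were 21.5 to 31.3 TPM (median 25.4) in PRE-CX, 6.66 to 36.7 TPM (median 21.9) in POST-CX and 19.9 to 48.0 TPM (median 26.0) in CRPC. They were 15.6 to 86.3 TPM (median 46.4) in ENZS and 7.12 to 62.7 TPM (median 31.5) in ENZR. Of the ENZS tumours 10 of 12 lay above the PRE-CX range and 1 below it, and of the ENZR tumours 8 of 15 lay above and 2 below. The mean was 26.1 ± 3.57 TPM (SD, n = 9) in PRE-CX and 47.2 ± 20.9 TPM (SD, n = 12) in ENZS, a log2 difference of 0.71 (SE 0.26, adjusted p = 0.0262). This call was lost without ENZS mouse 17 (adjusted p = 0.0526) or ENZS mouse 45 (adjusted p = 0.0541), and with values centred on the median (adjusted p = 0.0681). In ENZR the log2 difference was 0.31 (SE 0.25, adjusted p = 0.372), and on rescaled TPM it was 0.55 (adjusted p = 0.0262).

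CHAC1, an enzyme that breaks down glutathione (chromosome 15, 40953471 to 40956512), rose in both enzalutamide groups from a low level. It stood at 0.5 to 2.04 TPM (median 1.08) in PRE-CX, 0.48 to 4.41 TPM (median 1.66) in POST-CX and 0.79 to 5.75 TPM (median 2.265) in CRPC. It stood at 1.83 to 10.1 TPM (median 5.065) in ENZS and 0.52 to 10.4 TPM (median 3.61) in ENZR. All but 1 of the 12 ENZS tumours and 10 of 15 ENZR tumours lay above the PRE-CX range, while 6 of 10 CRPC tumours did. The log2 difference from PRE-CX was 1.38 in ENZS (SE 0.27, adjusted p = 4.58e-05), 2.61-fold on TPM + 1, and 1.02 in ENZR (SE 0.26, adjusted p = 0.00187), 2.03-fold. These folds understate the change, because the added 1 TPM is close to the PRE-CX mean of 1.14 ± 0.441 TPM (SD, n = 9). In CRPC the difference was 0.61 (SE 0.28, adjusted p = 0.208).

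ASNS, which makes asparagine from aspartate and glutamine (chromosome 7, 97851677 to 97928441), did not pass with all 54 tumours on deposited TPM. It stood at 32.3 to 55.8 TPM (median 40.4) in PRE-CX, 16.2 to 61.8 TPM (median 47.0) in POST-CX, 37.4 to 66.3 TPM (median 48.0) in CRPC, 40.6 to 91.1 TPM (median 56.7) in ENZS and 8.19 to 96.5 TPM (median 56.8) in ENZR. All 12 ENZS tumours were above the PRE-CX median and 6 above the PRE-CX range, so the groups overlapped. The log2 difference from PRE-CX was 0.51 in ENZS (SE 0.24, adjusted p = 0.088) and 0.28 in ENZR (SE 0.23, adjusted p = 0.387). The rescaled differences were 0.54 in ENZS (adjusted p = 0.00231) and 0.52 in ENZR (adjusted p = 0.00264). On deposited TPM without POST-CX mouse 91 and ENZR mouse 87 ASNS passed in ENZS (adjusted p = 0.00532) and in ENZR (adjusted p = 0.0107), and without ENZR mouse 87 alone in both as well (adjusted p = 0.015 and 0.0269).

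Serine is made from a glycolysis intermediate by PHGDH, then PSAT1, then PSPH, and these 3 enzymes did not change alike. PHGDH, the first enzyme (chromosome 1, 119711934 to 119744215), stood at 81.6 to 165 TPM (median 117) in PRE-CX, 28.9 to 163 TPM (median 146) in POST-CX and 80.7 to 206 TPM (median 129) in CRPC. It stood at 91.2 to 189.7 TPM (median 130.5) in ENZS and 11.4 to 216 TPM (median 122) in ENZR. The ranges overlapped in every group, and the log2 difference from PRE-CX was 0.13 in ENZS (SE 0.28, adjusted p = 0.74) and -0.15 in ENZR (SE 0.27, adjusted p = 0.727). On rescaled TPM the ENZR difference was 0.09 (adjusted p = 0.593), so its direction depends on the scaling.

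PSAT1, the aminotransferase of the middle step (chromosome 9, 78297125 to 78330093), showed the smallest adjusted p of the members. Its lowest, median and highest levels were 43.8, 57.8 and 95.5 TPM in PRE-CX, 31.3, 91.2 and 123 TPM in POST-CX, and 67.8, 93.7 and 131 TPM in CRPC. They were 119, 156 and 259.8 TPM in ENZS and 17.1, 126 and 229 TPM in ENZR. The ENZS and PRE-CX ranges did not overlap, and 10 of 12 ENZS tumours also lay above the CRPC range. In ENZR 11 of 15 tumours lay above the PRE-CX range with 1 below it, and on rescaled TPM 12 above with 0 below. The mean was 63.5 ± 17.5 TPM (SD, n = 9) in PRE-CX and 161 ± 37.8 TPM (SD, n = 12) in ENZS, a log2 difference of 1.34 (SE 0.26, adjusted p = 4.04e-05), 2.54-fold on TPM + 1. In ENZR the difference was 0.80 (SE 0.25, adjusted p = 0.0117), 1.74-fold, and this call was lost when only the ENZR and PRE-CX tumours entered the fit (adjusted p = 0.0617). In CRPC the difference was 0.67 (SE 0.27, adjusted p = 0.136), and on rescaled TPM it was 0.63 and passed (adjusted p = 0.0176).

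PSPH, the phosphatase of the last step (chromosome 7, 56011064 to 56051444), differed little in size between groups. It stood at 12.0 to 23.1 TPM (median 17.6) in PRE-CX, 5.74 to 26.6 TPM (median 24.5) in POST-CX, 17.6 to 28.4 TPM (median 23.7) in CRPC, 17.6 to 27.4 TPM (median 21.3) in ENZS and 2.17 to 30.6 TPM (median 21.8) in ENZR. All groups overlapped PRE-CX, and no difference passed on deposited TPM with all 54 tumours (0.35 in ENZS, SE 0.24, adjusted p = 0.244). Without POST-CX mouse 91 and ENZR mouse 87 PSPH passed in CRPC (adjusted p = 0.0127), ENZS (adjusted p = 0.0148) and ENZR (adjusted p = 0.00465), and without ENZR mouse 87 alone in ENZR (adjusted p = 0.0322). On rescaled TPM PSPH passed against PRE-CX in all 4 comparisons with log2 differences of 0.43 in POST-CX (adjusted p = 0.00753), 0.40 in CRPC (adjusted p = 0.00888), 0.39 in ENZS (adjusted p = 0.00223) and 0.43 in ENZR (adjusted p = 0.000538). Against its neighbours in the pathway PSAT1 stood apart. The ratio of PSAT1 to PHGDH within a tumour, which does not depend on the human sum, had medians of 0.565 in PRE-CX, 0.64 in POST-CX, 0.654 in CRPC, 1.27 in ENZS and 1.1 in ENZR. All 12 ENZS ratios (lowest 0.847) and 10 of 15 ENZR ratios exceeded the highest PRE-CX ratio of 0.816. The ratio of PSAT1 to PSPH had medians of 4.12 in PRE-CX and 7.37 in ENZS, again with all 12 ENZS tumours above the PRE-CX range. No test was made of these ratios.

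SLC7A11, the cystine and glutamate exchanger (chromosome 4, 138164097 to 138242349), supplies cystine for glutathione. Its lowest, median and highest levels were 3.65, 7.74 and 11.1 TPM in PRE-CX, 2.96, 6.21 and 18.6 TPM in POST-CX, and 4.22, 8.635 and 17.1 TPM in CRPC. They were 3.72, 18.2 and 32.8 TPM in ENZS and 3.46, 9.82 and 42.1 TPM in ENZR. In ENZS 8 of 12 tumours and in ENZR 7 of 15 lay above the PRE-CX range, and ENZR mouse 72 had the highest level. The mean was 7.38 ± 2.32 TPM (SD, n = 9) in PRE-CX and 16.8 ± 8.36 TPM (SD, n = 12) in ENZS, a log2 difference of 0.97 (SE 0.33, adjusted p = 0.0178), 1.95-fold on TPM + 1. With values centred on the median this call was lost (adjusted p = 0.0567). In ENZR the difference was 0.77 (SE 0.32, adjusted p = 0.0628), and on rescaled TPM it passed (adjusted p = 0.00844).

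**Figure D2:**
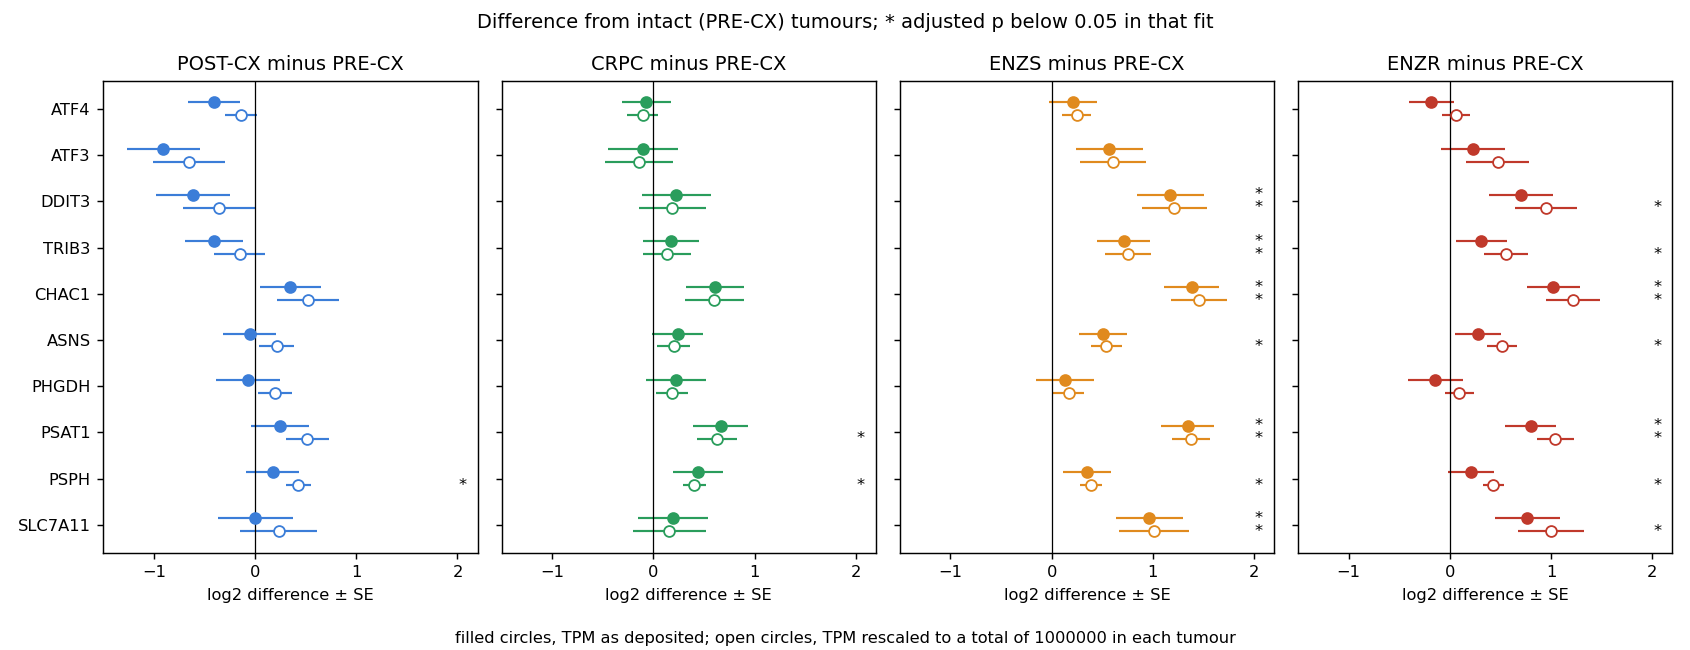
Log2 difference in TPM + 1 of each gene from PRE-CX in POST-CX, CRPC, ENZS and ENZR, with bars of 1 standard error from the limma fit, filled circles for deposited and open circles for rescaled TPM, and an asterisk where the adjusted p was under 0.05. On deposited TPM asterisks stand beside 5 genes in ENZS and 2 in ENZR and beside none in POST-CX or CRPC, and on rescaled TPM beside 7 genes in ENZS and 7 in ENZR.

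Castration without the drug gave no call among the members on deposited TPM with all 54 tumours. Limma called 0 of 10 in POST-CX against PRE-CX (1 at an unadjusted p under 0.05, smallest adjusted p = 0.159), where 1.66% of all tested genes were higher and 2.67% lower. It called 0 of 10 in CRPC against PRE-CX (2 at an unadjusted p under 0.05, smallest adjusted p = 0.136), where 5.55% were higher and 1.87% lower. Of all tested genes 17.3% had an unadjusted p under 0.05 in POST-CX and 19.7% in CRPC. On rescaled TPM PSPH rose in POST-CX, where 21.1% of all tested genes were then higher, and PSAT1 and PSPH rose in CRPC, where 14.5% were, so that these counts lay near the share of all genes. On deposited TPM without POST-CX mouse 91 and ENZR mouse 87 PSAT1 (adjusted p = 0.0113) and PSPH (adjusted p = 0.0127) passed in CRPC, with 15.8% of all tested genes higher, and PSAT1 also passed without ENZR mouse 87 alone (adjusted p = 0.0242). The median log2 difference of the members was -0.06 in POST-CX, against -0.05 over all tested genes, and 0.22 in CRPC, against 0.11.

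The drug was also compared with castration alone and the relapse steps with the PSA minima. Between ENZS and CRPC 1 member rose, DDIT3, where 6.21% of all tested genes were higher and 2.71% lower, and CHAC1 (0.77, SE 0.26, adjusted p = 0.0517) and PSAT1 (0.68, SE 0.25, adjusted p = 0.0822) came next. On rescaled TPM 6 members rose in that comparison, namely ATF4, DDIT3, TRIB3, CHAC1, PSAT1 and SLC7A11, where 31.7% of all tested genes were higher. Without POST-CX mouse 91 and ENZR mouse 87, 4 rose on deposited TPM, namely DDIT3, TRIB3, CHAC1 and PSAT1, with 19.5% of all tested genes higher. In ENZR against PRE-CX 6 then rose (DDIT3, CHAC1, ASNS, PSAT1, PSPH and SLC7A11), with 39.1% of all tested genes higher. Leaving out ENZR mouse 87 alone also gave 6 in ENZR. Between CRPC and POST-CX limma called 0 members (3 at an unadjusted p under 0.05, smallest adjusted p = 0.69), and 0% of all tested genes in either direction, with 1154 genes (6.74%) at an unadjusted p under 0.05.

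Between ENZR and ENZS limma also called 0 members (1 at an unadjusted p under 0.05, PSAT1 with -0.55, SE 0.23, adjusted p = 0.394), where 0% of all tested genes were higher and 0.0175% lower. Of all tested genes 11.2% had an unadjusted p under 0.05 there. All 10 members had a negative difference with a median of -0.35, against -0.19 over all tested genes. The members that stood above PRE-CX in ENZS were therefore not shown to be lower again in ENZR. With POST-CX left aside, their order by group median was PRE-CX, CRPC, ENZR and ENZS for DDIT3, TRIB3, CHAC1, PSAT1 and SLC7A11. No pair of neighbours in that order that was tested (CRPC against PRE-CX, ENZR against ENZS) passed for them on deposited TPM. The POST-CX median on deposited TPM lay below that of PRE-CX for DDIT3, TRIB3 and SLC7A11. For CHAC1 and PSAT1 it lay between those of PRE-CX and CRPC. ENZR and CRPC were not compared by a test. The difference between the relapse steps, that of ENZR from ENZS less that of CRPC from POST-CX, called 0 members (5 at an unadjusted p under 0.05). Over all tested genes 0% were higher and 0.187% lower, and 19.6% had an unadjusted p under 0.05. This difference of the steps was negative for all 10 members on deposited TPM and largest for DDIT3 (-1.31, adjusted p = 0.155). Its median was -0.68 over the members and -0.37 over all tested genes. On rescaled TPM the medians were -0.27 and 0.03, and PSPH (0.0653) and SLC7A11 (0.0675) were then positive.

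Relative to ATF4 itself, the members parted further. The ratio of CHAC1 to ATF4 within a tumour had medians of 0.00566 in PRE-CX, 0.0164 in ENZS and 0.0198 in ENZR, and 11 of 12 ENZS and 13 of 15 ENZR tumours lay above the PRE-CX range. The ratio of TRIB3 to ATF4 had medians of 0.128, 0.191 and 0.197 in those groups, with 8 of 12 and 11 of 15 tumours above the range. The ratio of ASNS to ATF4 had medians of 0.185, 0.244 and 0.276, and none of the 45 tumours outside PRE-CX left its PRE-CX range of 0.144 to 0.31. In POST-CX it ran only from 0.235 to 0.267, although the human sums of those tumours went down to 27.9%. As ratios of TPM within 1 tumour, these do not depend on the human sum. They were not tested.

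Tumours of 1 group also differed from each other, and the members tended to do so together. For each pair of members the deviations of log2(rescaled TPM + 1) from the group means were correlated over the 54 tumours. Of 45 pairs, all 45 had a positive r and 37 passed by a permutation test of Pearson's r, two-sided, adjusted over the 45 pairs, as did 36 by Spearman's rho. The smallest permutation p was 1e-05, the smallest the permutations can give (adjusted p = 2.25e-05). The pairs share their tumours, so they are not independent of each other. Pairs of other tested genes were not counted, so no share over all genes stands beside these counts. A passing pair was not always a close one, as ATF4 ranked 837th among the tested genes for PSAT1 (r = 0.473) and 1126th for PSPH (0.368).

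The strongest pair was ATF3 and DDIT3, with r = 0.877 and rho = 0.866 (adjusted permutation p = 2.25e-05 for both). Without the 2 tumours farthest from the median of the first measure, ENZS mouse 45 and PRE-CX mouse 62, r was 0.86. Within the groups r was 0.86 in PRE-CX, 0.66 in POST-CX, 0.924 in CRPC, 0.896 in ENZS and 0.93 in ENZR. DDIT3 and TRIB3 (r = 0.838, rho = 0.831, and 0.788 without the 2 tumours), ATF4 and ASNS (0.831, 0.807 and 0.786) and CHAC1 and ASNS (0.829, 0.845 and 0.819) followed, each with an adjusted permutation p of 2.25e-05. ATF4 messenger RNA itself was thus tied most closely to ASNS.

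**Figure D3:**
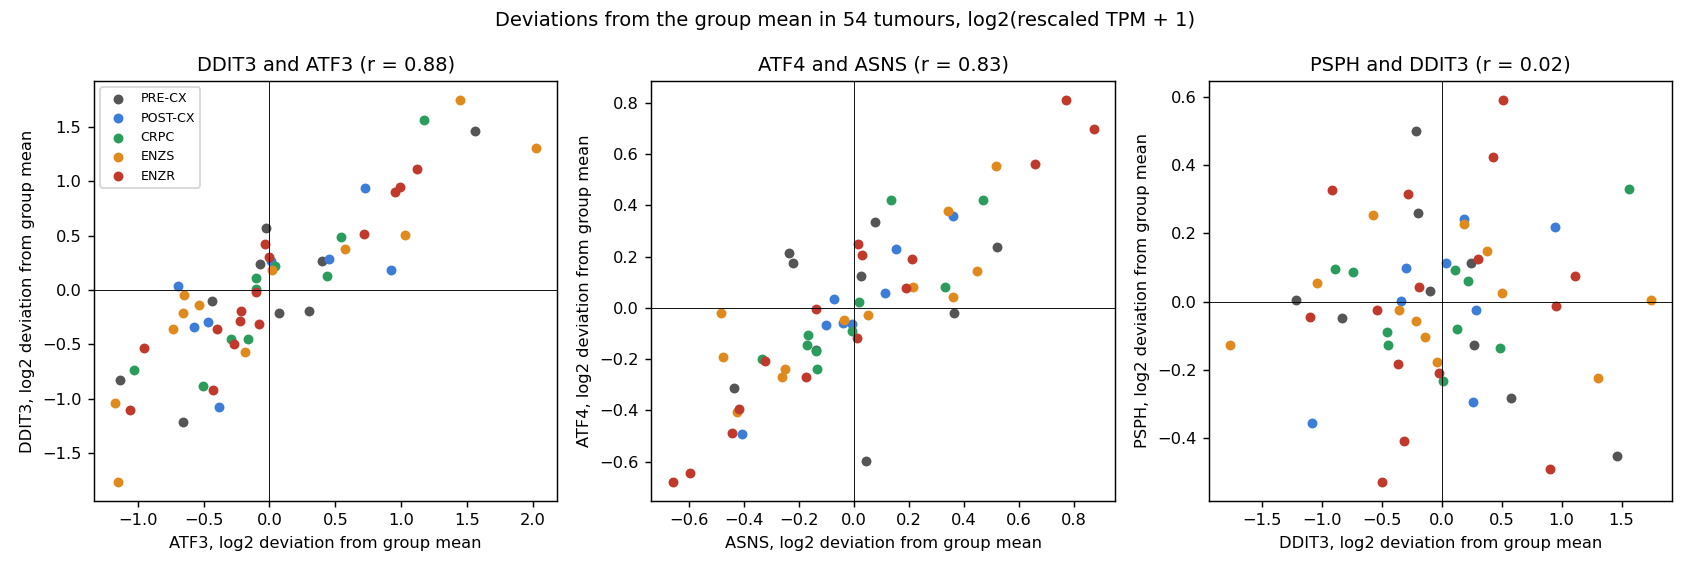
Deviations of log2(rescaled TPM + 1) from the group mean in each of the 54 tumours, on both axes in log2 units, for 3 pairs of members, 1 point per tumour coloured by group. The points of ATF3 and DDIT3 (r = 0.877) and of ASNS and ATF4 (r = 0.831) run along a diagonal, and those of DDIT3 and PSPH (r = 0.0159) do not.

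All 9 pairs of the serine enzymes with ATF4, TRIB3 and CHAC1 passed by r, from 0.287 for TRIB3 and PSPH to 0.616 for CHAC1 and PSAT1, and none of the 6 with ATF3 and DDIT3 did. PSAT1 and ASNS (r = 0.623) and PSAT1 and PSPH (0.534) passed. PHGDH and PSPH passed with r = 0.49 and rho = 0.378 (adjusted permutation p = 0.001 and 0.0107), but r was 0.327 without ENZR mice 23 and 72, and within the groups it ranged from -0.617 in CRPC to 0.894 in ENZR. The 8 pairs that did not pass by r were PSAT1 with PHGDH (0.31, adjusted permutation p = 0.0595), with ATF3 (0.201) and with DDIT3 (0.165), PHGDH with SLC7A11 (0.2), ATF3 (0.104) and DDIT3 (0.0387), and PSPH with DDIT3 (0.0159) and ATF3 (0.00518). All 8 held at least 1 serine synthesis enzyme. PSAT1, which had the smallest adjusted p between groups, did not pass with the stress factors ATF3 and DDIT3 within them.

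**Figure D4:**
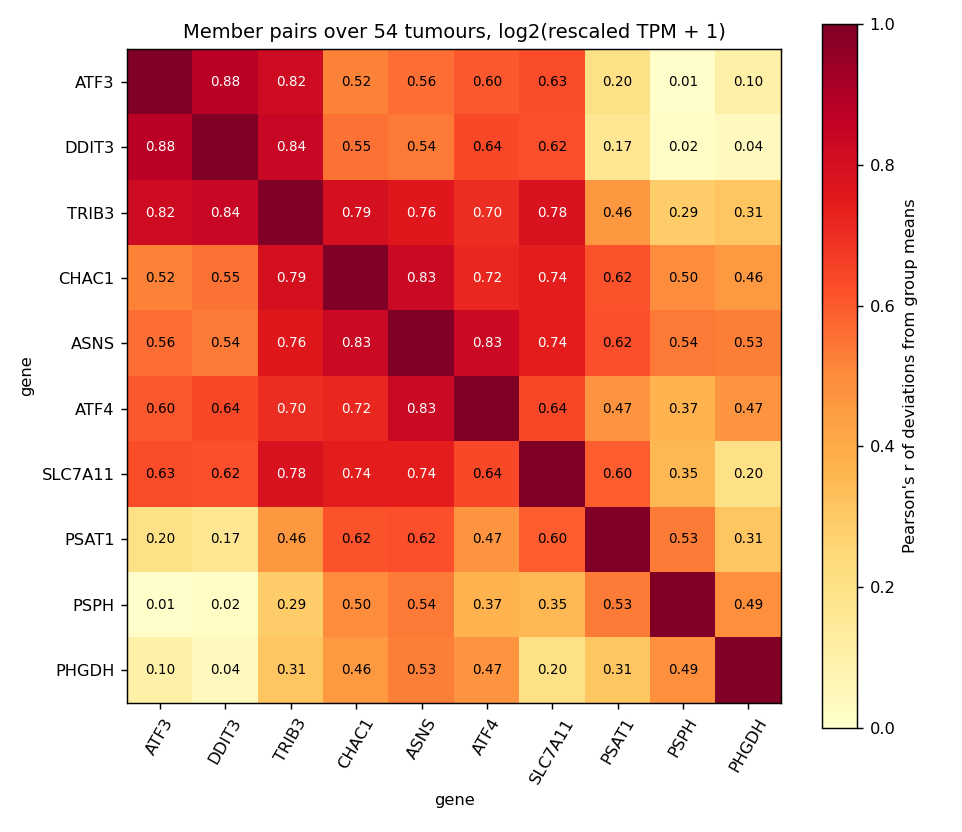
Pearson's r of the deviations from group means over 54 tumours for each of the 45 pairs of members, as a grid coloured from 0 to 1 with r printed in each cell. The block of the 7 genes ATF3, DDIT3, TRIB3, CHAC1, ASNS, ATF4 and SLC7A11 is darker than the rows of PSPH and PHGDH, and the palest cell is that of ATF3 and PSPH (r = 0.00518).

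Some tumours were the highest of their group in several members. CRPC mouse 47 had the highest rescaled TPM of its group in 9 of the 10 members and the lowest in the remaining one, PHGDH. POST-CX mouse 86 was the highest of its group in 7 members. In ENZS the highest deposited TPM came from mouse 45 for ATF4, ATF3, TRIB3, ASNS and SLC7A11 and from mouse 17 for DDIT3, and mouse 101 had the lowest ATF3, DDIT3, TRIB3, CHAC1 and SLC7A11 although its PSAT1 was 195 TPM. ENZR mouse 72 was the highest of its group for CHAC1, ASNS, PHGDH, PSPH and SLC7A11 on either scale.

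The genes most like each member over the 54 tumours, were ranked by r of the same deviations, as a description with no test. They were ASNS (0.831), ADM2 (0.814) and ASNSP1 (0.81) for ATF4, and ADM2 (0.875), GARS1 (0.873) and ATF4 (0.831) for ASNS. For TRIB3 they were SESN2 (0.919), DDIT3 (0.838) and CEBPG (0.832), and for ATF3 they were DDIT3 (0.877), TRIB3 (0.818) and SESN2 (0.797). For DDIT3 the closest outside the members was OSER1 (0.813), for CHAC1 it was SERPINA3 (0.803), and for SLC7A11 the closest were ASNSP1 (0.816), GCNT3 (0.802) and GCLM (0.794). SERPINA3 (median 0.435 TPM), GCNT3 (0.51 TPM) and ASNSP1 (1.04 TPM) were low over the 54 tumours, whereas GCLM was at 31.4 TPM. The nearest genes to the serine enzymes were MAL2 (0.847), COBLL1 (0.782) and CLIC4 (0.765) for PSAT1, RCC2 (0.725), ZBED4 (0.717) and CCT7 (0.7) for PHGDH, and SNX6 (0.669), ZFAND1 (0.638) and NUDT6 (0.634) for PSPH. ATF4 ranked 42nd for TRIB3 and 837th for PSAT1.

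Other genes of the pathway were read from lists fixed by name. Their counts stand beside 30.3% of all tested genes higher and 8.18% lower in ENZS, and 17.6% and 11.5% in ENZR, or, on rescaled TPM, 47.8% and 13.8% in ENZS and 44.8% and 14% in ENZR. Among 11 enzymes of amino acid and one-carbon metabolism, 1 rose and 4 fell in ENZS against PRE-CX (median log2 difference -0.43, against 0.26 over all tested genes), and 1 rose and 5 fell in ENZR (median -0.55, against 0.07). On rescaled TPM 1 rose and 6 fell in each. SHMT2, the mitochondrial enzyme that turns serine into glycine, was 126 to 357 TPM (median 182) in PRE-CX, 67.5 to 161 TPM (median 81.6) in ENZS and 11.7 to 159 TPM (median 98.5) in ENZR. Its log2 difference from PRE-CX was -1.09 in ENZS (adjusted p = 0.00264), -1.18 in ENZR (adjusted p = 0.000993) and -1.14 in POST-CX (adjusted p = 0.0278). In ENZS MTHFD2 (-0.69), MTHFD1L (-0.75) and PYCR1 (-0.96) also fell, and ALDH1L2 (0.49) rose from a mean of 0.481 to 1.11 TPM. SHMT2, MTHFD2 and MTHFD1L, which pass on one-carbon units from serine in mitochondria, thus fell in the group in which PSAT1 rose.

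Of 9 amino acid transporters tested, 4 rose and 1 fell in ENZS (median 0.38), and 2 rose and 2 fell in ENZR. On rescaled TPM 5 rose and 2 fell in each. SLC3A2, the partner chain of SLC7A11 and SLC7A5, was 119 to 278 TPM (median 145) in PRE-CX and 126 to 408 TPM (median 269) in ENZS, a log2 difference of 0.73 (adjusted p = 0.0105). SLC7A5 (0.71), SLC1A4 (0.86) and SLC6A9 (0.68) rose as well. SLC43A1, a transporter of large neutral amino acids, was 18.7 to 109 TPM (median 31.7) in PRE-CX and 0.87 to 4.26 TPM (median 1.6) in ENZS, with no overlap (log2 difference -3.56, adjusted p = 5.47e-15). It was already lower in POST-CX (-2.46, adjusted p = 6.5e-08).

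Of 12 cytosolic tRNA synthetases, 4 rose in ENZS and none fell (median 0.30), and 0 were called by limma in ENZR (median 0.04). AARS1, which charges alanine, had the largest rise, from a mean of 74.9 ± 21.98 TPM (SD, n = 9) to 145 ± 37.3 TPM (SD, n = 12), a log2 difference of 0.96 (adjusted p = 0.00277). GARS1, SARS1 and NARS1 were the others. On rescaled TPM 6 rose in ENZS and 7 in ENZR. The 4 of 12 in ENZS, and the rescaled counts, lay close to the shares of all tested genes.

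Of 12 genes for eIF2, its kinases, its phosphatase subunits and its exchange factor, 1 rose in ENZS (median -0.05). It was EIF2AK3 (PERK), the kinase that senses the endoplasmic reticulum, with 0.80 (adjusted p = 0.00884). EIF2S1, the subunit that is phosphorylated, fell in ENZR (-0.79, adjusted p = 0.0142). PPP1R15A (GADD34), which recruits the phosphatase to eIF2, fell in POST-CX (-0.86, adjusted p = 0.0498). On rescaled TPM 3 rose in ENZS (EIF2AK1, EIF2AK3 and EIF2B1) and 3 in ENZR, and 1 fell in each, in ENZS EIF2S1 (-0.60, adjusted p = 2.87e-05).

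Of 11 other stress genes, 3 rose and 3 fell in ENZS (median -0.29), and 2 rose and 4 fell in ENZR. On rescaled TPM 3 rose and 4 fell in ENZS, and 4 rose and 4 fell in ENZR. SESN2, which restrains mTORC1 when leucine is short, rose from 3.90 ± 1.14 TPM (SD, n = 9) to 9.99 ± 4.99 TPM (SD, n = 12) in ENZS (log2 difference 1.07, adjusted p = 0.000517) and was 0.72 higher in ENZR (adjusted p = 0.0192). CEBPB (0.94) and CEBPG (0.81), partners of ATF4, rose in ENZS. GDF15, a secreted stress cytokine, fell from 549 to 2318 TPM (median 904) in PRE-CX to 60.1 to 291 TPM (median 178) in POST-CX, with no overlap (-2.64, adjusted p = 1.36e-06). It was 101 to 1087 TPM (median 384) in ENZS (adjusted p = 0.000424), and DDIT4 (-1.06) and EIF4EBP1 (-1.10) also fell there. Genes often listed as ATF4 targets thus moved in both directions.

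Of 8 genes of the oxidative stress factor NRF2, 3 rose in ENZS (median 0.55) and 1 in ENZR, and none fell, which is near the share of all tested genes. On rescaled TPM 5 rose in ENZS and 6 in ENZR. SLC3A2 was counted here too. NQO1 rose from 62.9 ± 15.6 TPM (SD, n = 9) to 141 ± 63.9 TPM (SD, n = 12) in ENZS (1.06, adjusted p = 0.00746). GCLM, the modifier subunit of the enzyme that starts glutathione synthesis, rose by 1.03 in ENZS and by 0.87 in ENZR (adjusted p = 0.0106). Of 9 chaperones and unfolded protein response genes of the endoplasmic reticulum, 4 rose in ENZS (median 0.56), and limma called 0 in ENZR (median 0.09). DNAJB9 was 20.6 to 42.3 TPM (median 26.1) in PRE-CX and 44.0 to 103 TPM (median 61.9) in ENZS, with no overlap (1.22, adjusted p = 3.3e-05). HSPA5 (0.94), HERPUD1 (0.67) and XBP1 (0.61) rose too. On rescaled TPM 7 of the 9 rose in ENZS and 6 in ENZR. In POST-CX no gene of these 7 lists rose on deposited TPM and 8 fell, 1 transporter, 3 enzymes, 1 of the eIF2 list and 3 other stress genes. Over all tested genes 1.66% were higher and 2.67% lower there, and on rescaled TPM 21.1% and 5.73%. On rescaled TPM ALDH1L2 (adjusted p = 0.0434), AARS1 (adjusted p = 0.0242) and NARS1 (adjusted p = 0.023) rose in POST-CX, fewer than the share of all tested genes. There 3 enzymes, 1 transporter, 2 of the eIF2 list, 5 other stress genes and 1 NRF2 gene fell. On deposited TPM between ENZR and ENZS limma called 0 in all 7 lists.

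**Figure D5:**
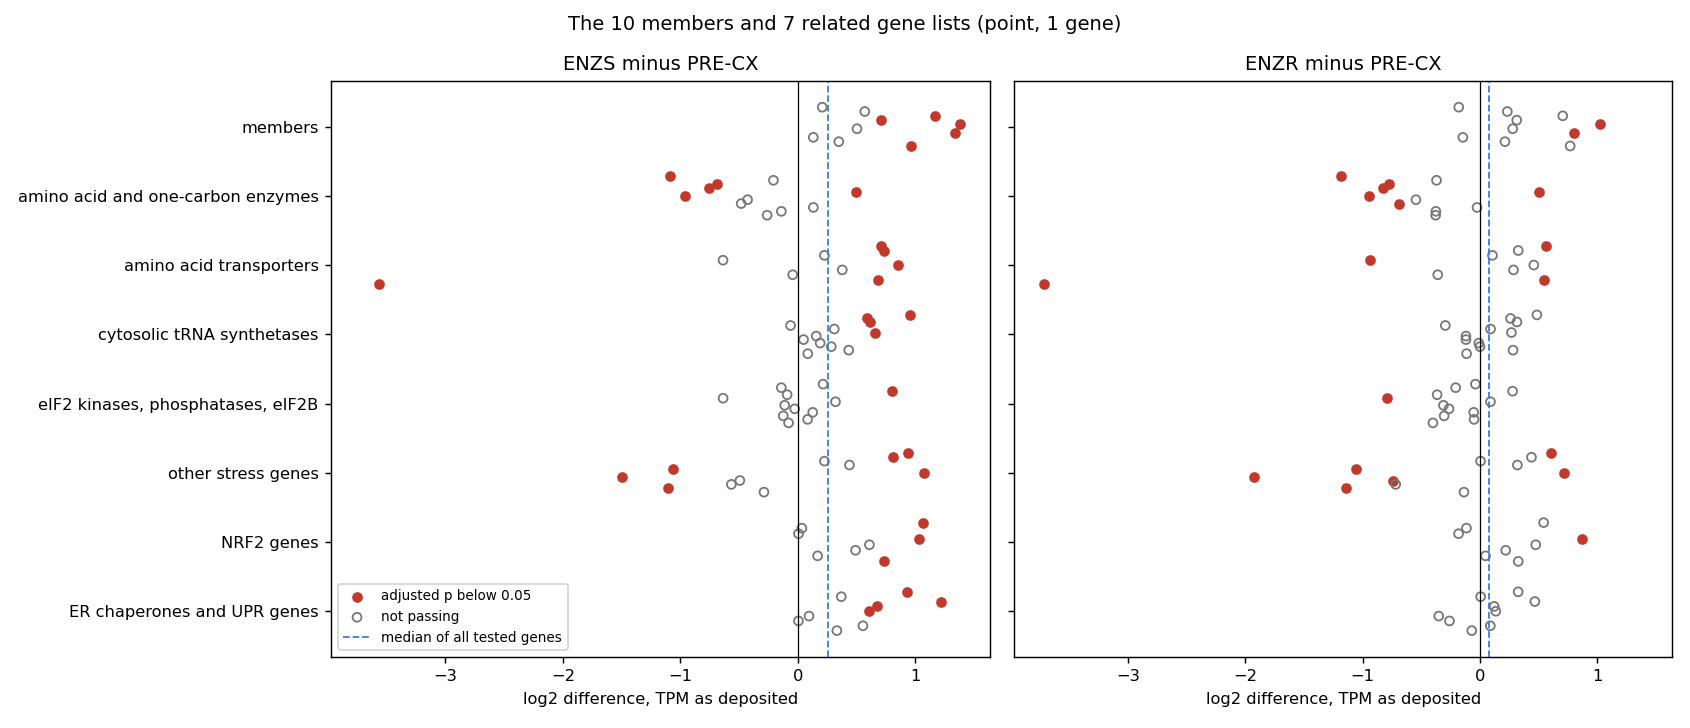
Log2 difference in TPM + 1 from PRE-CX in ENZS and ENZR for the 10 genes and the tested genes of the 7 related lists (rows), 1 point per gene, filled where the adjusted p was under 0.05, with a dashed line at the median of all tested genes (0.26 in ENZS and 0.07 in ENZR). Filled points lie on both sides of 0 for the enzymes, transporters and other stress genes, and SLC43A1 lies far to the left at -3.56 and -3.72.

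Some measured features moved with the groups beside these results. All 5 cell division genes listed were lower in ENZS (median log2 difference -2.84) and in ENZR (-2.12). Over the 54 tumours the deviations of the members had r from -0.362 (PSAT1) to 0.352 (PHGDH) with the mean of those 5 genes. Of 18 markers of stroma, endothelium and blood, 7 passed the filter, of which 5 were higher and 1 lower in ENZS and 3 higher and 1 lower in ENZR. The summed level of all 18 was 8.95 to 242 TPM over all tumours, with group medians of 15.2 TPM in PRE-CX, 21.0 TPM in POST-CX, 27.2 TPM in CRPC, 47.1 TPM in ENZS and 54.6 TPM in ENZR. The endothelial markers PECAM1, at most 0.06 TPM, and KDR, at most 0.03 TPM, were at or near 0 in every tumour, while COL3A1 had means of 0.849 TPM in PRE-CX and 17.8 TPM in ENZS, VWF was lower in ENZS (log2 difference -0.98, adjusted p = 0.000764) and in ENZR (-1.41, adjusted p = 2.57e-06), and COL1A1 did not pass in either. The part of cell division and of these markers in the differences of the members was not tested.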

How the data were processed

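Bulk RNA-seq was made from 54 LNCaP xenograft tumours, 1 per mouse, grouped by the labels. The authors prepared stranded poly(A) libraries with ERCC controls (RNA integrity number above 8), sequenced about 40 M read pairs of 125 bp per tumour, trimmed them with Trim Galore 0.6.5 after FastQC 0.11.9, aligned them with STAR 2.7.2b to GRCh38 and GRCm38 combined and estimated expression with RSEM 1.3.3. The deposited values are TPM of human gene symbols, with 2 decimals except for 30 symbols that have more. TPM keeps no read depth per tumour, so no counting interval can be given. The labels name no batch, litter or date.

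TPM was tested as log2(TPM + 1) with limma 3.58.1 in R 4.3.3 (5 group means, empirical Bayes with trend), over the 17131 genes with at least 1 TPM in at least 8 tumours. P-values were adjusted by Benjamini-Hochberg over all of them, and passing means an adjusted p under 0.05. The 7 comparisons and the difference of the relapse steps come from this fit, and folds are on the TPM + 1 scale. For each pair of members a two-sided permutation test with 100000 resamples was made (Python 3.11.15, scipy 1.17.1), adjusted over the 45 pairs. The model was tested on simulated data. Alternatives were TPM rescaled to 1000000 per tumour, centring on the median, a pseudocount of 0.1, no filter, leaving out the 2 tumours of lowest human sum (POST-CX mouse 91 and ENZR mouse 87) or any 1 tumour, and fitting only the groups compared. Gene positions and promoter windows are from RefSeq on GRCh38.p14; all 10 members matched by symbol and 8 had a window.

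Besides the 10 members, the genes named were, in each related list, the passing genes with the largest rise and fall (only where one of the groups averaged 5 TPM or more), and for each member the 3 genes with the highest r. Other genes named in the lists were chosen after their values were seen. The members and lists were chosen with earlier results of these data known.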

Additional observations from a re-analysis of the deposited data

Results flagged for a closer look

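Of 30 combinations of a member with a group of 4 to 10 tumours, 4 had a tumour far from the rest of its group by Dixon's criterion. Chance alone meets it in about 1 in 20 groups if values are normally distributed, which was not tested for TPM here. The combinations share tumours and the members were correlated, so they are not independent. In PRE-CX, mouse 62 had 122.06 TPM of ATF3, where the next tumour had 50.58 TPM, and 132.15 TPM of DDIT3, where the next had 65.2 TPM. In CRPC, mouse 47 had 160.42 TPM of DDIT3, where the next had 79.4 TPM, and 5.75 TPM of CHAC1, where the next had 3.24 TPM. All 4 also met the criterion on rescaled TPM. The ENZS and ENZR groups, with more than 10 tumours, were not examined in this way.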

How the results depend on the processing

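On rescaled TPM the members passing were 1 in POST-CX, 2 in CRPC, 7 in ENZS and 7 in ENZR against PRE-CX, and 6 in ENZS against CRPC (5 in ENZS, 2 in ENZR and 1 in ENZS against CRPC on deposited TPM), with the same counts when POST-CX mouse 91 and ENZR mouse 87 were also left out. The shares of all tested genes higher on rescaled TPM were 21.1%, 14.5%, 47.8%, 44.8% and 31.7%, in that order. On deposited TPM without POST-CX mouse 91 and ENZR mouse 87 the members passing were 2 in CRPC, 7 in ENZS, 6 in ENZR and 4 in ENZS against CRPC. The shares were then 15.8%, 43.9%, 39.1% and 19.5%. Centring on the median gave 2 in CRPC, 3 in ENZS, 3 in ENZR and 2 in ENZS against CRPC. With centring 11%, 26%, 25.3% and 10.3% of all tested genes were higher, so the counts in ENZS and ENZR lay near the shares. A pseudocount of 0.1 or no filter gave 0 in ENZS against CRPC, where 4.1% and 3.14% of the genes in the fit were higher. Fitting only the groups compared gave 3 in CRPC, 7 in ENZS, 1 in ENZR and 4 in ENZS against CRPC. In those fits 18.7%, 44.7%, 12.9% and 22.4% of all tested genes were higher. Leaving out 1 tumour gave 0 to 1 in CRPC, 2 to 6 in ENZR, 4 to 6 in ENZS and 0 to 3 in ENZS against CRPC, and the highest ENZR count came without ENZR mouse 87. The pairs passing by r were 45 on deposited TPM, 33 with centring, 37 with a pseudocount of 0.1, 38 without the 2 mice and 36 by rho, against 37.

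Directions that turned all belonged to differences that passed in no such fit. On rescaled TPM, and then rescaled without the 2 mice, ATF4 in ENZR was 0.0644 and 0.0465, PHGDH in ENZR 0.0946 and 0.137, ASNS in POST-CX 0.212 and 0.196, PHGDH in POST-CX 0.199 and 0.278, PHGDH in CRPC against POST-CX -0.0171 and -0.0957, PSPH there -0.0235 and -0.0656, SLC7A11 there -0.077 and -0.00639, and PSPH in ENZR against ENZS 0.0418 and 0.0769. ASNS in CRPC against POST-CX was -0.0102 rescaled. Without the 2 mice on deposited TPM, ASNS in POST-CX was 0.125, PHGDH 0.205 there and 0.0766 in ENZR, and PSPH in ENZR against ENZS 0.0533. With centring, ATF4 in ENZS was -0.0424, PHGDH in ENZS -0.119, PSPH in ENZR against ENZS 0.0617 and SLC7A11 there 0.00115. SLC7A11 in POST-CX was -0.0178 with a pseudocount of 0.1. The difference of the relapse steps was -0.40 for PSPH, -0.39 for SLC7A11 and -0.57 for PHGDH on deposited TPM. It turned to 0.0653, 0.0136 and 0.143 for PSPH, 0.0675 for SLC7A11 and 0.0625 for PHGDH. The cause was not tested, beyond the human sums given above. Rescaling moved the median of all tested genes from -0.05 to 0.16 in POST-CX and from 0.07 to 0.25 in ENZR.

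No paired analysis was possible because no mouse number is shared between groups. Depth per tumour is unknown, so the counting error of a low gene such as CHAC1 could not be given. The 54 tumours come from 1 cell line.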
